A study of Panonychus citri with 4 samples.

Results

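The microRNA miR-305 was described in whole citrus red mites (Panonychus citri), a plant-feeding spider mite, at 4 stages of its life cycle. Its rows were taken from the authors' lists of known miRNAs as every name that is miR-305 alone or followed by a letter or an arm suffix, which gave 5 names of the 594 listed over all libraries, 4 from the 5p arm and 1 from the 3p arm. The groups were embryo, larva, nymph (protonymphs and deutonymphs mixed) and adult, each a single small RNA library from pooled whole animals, over 3000 for the embryo and 2500, 1500 and 1000 for the larva, nymph and adult. No treatment, strain or sex is given for any group. RNAs of 18 to 30 nucleotides (nt) were selected on a gel before sequencing.

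An animal miRNA gene makes a hairpin RNA whose 2 arms, named 5p and 3p after their place in it, are cut out as a duplex, and usually 1 arm is loaded into Argonaute and guides it to target messages through its seed, bases 2 to 8. In Drosophila miR-305 acts on the Notch and insulin pathways in intestinal stem cells, and its gene lies beside that of miR-275, which in the mosquito Aedes aegypti is needed for blood digestion and egg development. The family was picked for this account because its dominant arm differs between stages, so the read counts and arm shares given for it are descriptions of these libraries and carry no test.

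The sequences are shown because the 5p arm was listed under a different name and length at different stages, whereas the 3p arm was listed as the same sequence throughout. They are copied from the authors' lists, written as DNA 5′ to 3′, with the seed in capitals.
miR-305-5p: tTTGTACTtcatcaggtgctctg
miR-305a-5p: tTTGTACTtcatcaggtgctct
miR-305c-5p: tTTGTACTtcatcaggtgctc
miR-305b-5p: tTGTACTTcatcaggtgctct
miR-305-3p: gACATCTGaagaagtacattta
The names miR-305-5p, miR-305a-5p and miR-305c-5p are nested forms of 23, 22 and 21 nt that start at the same base and differ by 1 base each at the 3′ end, so they share the same seed. The name miR-305b-5p starts 1 base later, at base 2 of the longest form, which shifts its seed by 1 base. The 3p row has 22 nt and an unrelated seed. The 5p rows begin with U in RNA, and the 3p row begins with G. Another 22 families had rows of both arms, with at least 30 reads over the 2 arms together in at least 2 libraries. Among them the arm with more reads began with U in 18, and the arm with fewer reads in 5. Some of the arms with fewer reads had no more than 2 reads in any library. None of the other 589 names carried a miR-305 seed (0 of 589), and none shared a run of 12 bases with a miR-305 row.

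Placed together with RNAduplex, the 23 nt 5p form and the 3p row were predicted to form 17 base pairs, 16 of them Watson-Crick and 1 G-U, with a free energy of -21.8 kcal/mol. Bases 3 to 21 of the 5p form faced bases 1 to 18 of the 3p row, leaving 2 unpaired bases at the 3′ end of the 5p form. At the other end 4 unpaired bases of the 3p row faced 2 unpaired bases of the 5p form. The 22 nt form kept the 17 pairs and -21.8 kcal/mol with 1 unpaired base at its 3′ end. The 21 nt form miR-305c-5p was predicted to keep 15 pairs at -20.9 kcal/mol, with its last pair at base 18. These values come from the listed letters alone and say nothing about the amount of either strand.

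From embryo to adult the 4 libraries held 248256, 1012278, 1258698 and 438409 listed miRNA reads, which were 4.17%, 17.04%, 21.2% and 7.41% of nearly equal library totals of 5918115 to 5957910 reads. Levels are therefore given as reads per 1000000 (RPM) of the listed reads, called listed RPM, and per 1000000 of the library total, called library RPM. A name is listed with at least 1 read, and a floor of 3 reads corresponds to 12.1, 2.96, 2.38 and 6.84 listed RPM from embryo to adult. Replicate spread could not be measured, as each stage has 1 library, and every interval is a 95% interval for counting error alone. Reads amplified by PCR are not independent molecules. In whole animals, fewer cells that make a miRNA and less of it per cell cannot be told apart.

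The 3p arm held most miR-305 reads in the embryo, and the 5p arm held most in the nymph. In the embryo 64 reads came from the 5p arm and 229 from the 3p arm, a 5p share of 21.8% (Clopper-Pearson interval 17.2 to 27.02). In the larva 139 reads were 5p and 176 were 3p, a share of 44.1% (38.6 to 49.8). The interval lay below 50% in both libraries, in the larva by a small margin.

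In the nymph 617 reads were 5p and 436 were 3p, so the 5p arm held 58.6% (55.6 to 61.6). In the adult 211 reads were 5p and 174 were 3p, a share of 54.8% (49.7 to 59.9). The adult interval reached below 50%, so its dominant arm was not resolved at this depth. It overlapped that of the nymph and, by a small margin, that of the larva. The embryo interval overlapped none of the other 3. Expressed as a ratio, each read of 3p was matched by 0.279 reads of 5p in the embryo list, 0.790 in that of the larva, 1.42 in that of the nymph and 1.21 in that of the adult.

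**Figure D1:**
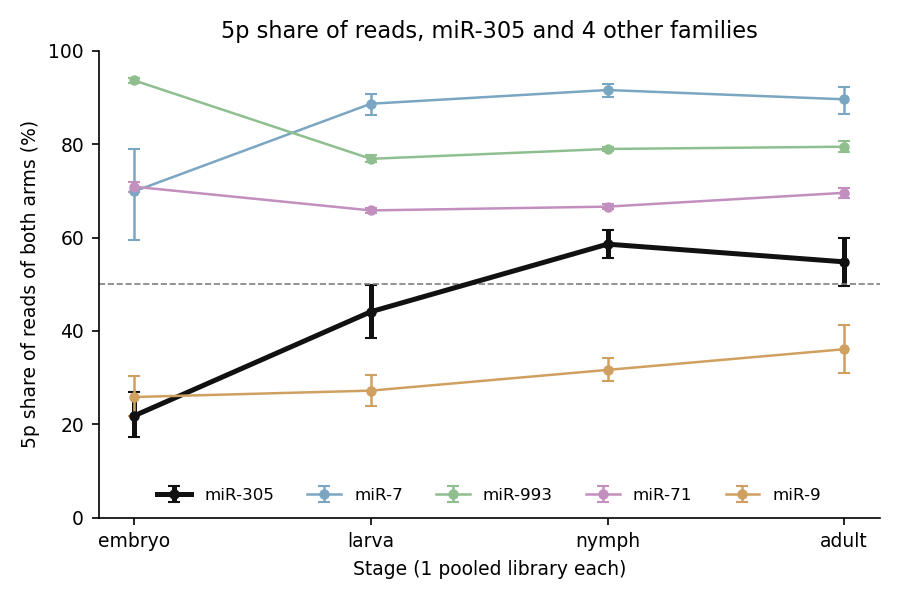
The 5p share of the reads of both arms (%, y axis) by stage (x axis, 1 pooled library each) for miR-305 and 4 other families, with 95% Clopper-Pearson intervals as bars and a dashed line at 50%. The miR-305 share is 21.8%, 44.1%, 58.6% and 54.8% from embryo to adult and crosses the line, which the other 4 families do not.

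The change in the 5p to 3p ratio does not depend on how the libraries are scaled, since both arms come from the same library. It was 2.82 times as high in the larva as in the embryo (exact conditional interval 1.95 to 4.10) and 1.79 times as high in the nymph as in the larva (1.38 to 2.33). The adult ratio was 0.857 of that of the nymph (0.673 to 1.09), an interval that includes no change. Against the larva the adult ratio was 1.53 times as high (1.13 to 2.10). Across the whole span the adult ratio was 4.33 times that of the embryo (3.04 to 6.21), and the nymph ratio was 5.06 times that of the embryo (3.71 to 6.97). The intervals of the last 2 lay wholly above 2-fold, as they did for 15% and 10% of the 20 families with at least 30 reads over both arms in both libraries, and nothing is read from this count because the family was picked on this contrast. The other ratios were not past 2-fold. In the larva against the embryo 5% of 20 families were higher and 5% lower, in the nymph against the larva 0% of 23 and 8.7%, and in the adult against the nymph 8.7% of 23 and 0%. For the adult against the larva these shares were 0% of 23 and 0%.

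Reads of both arms were listed for 44 of 206 families, and 23 families, miR-305 included, had at least 30 reads over both arms in at least 2 libraries. In 1 of these 23, or 4.35%, the dominant arm differed between stages with intervals on either side of 50%. This family is miR-305, which was picked for it, so nothing is read from the count. Without the nymph library the count was 0, because the adult share was not resolved from 50%. It stayed at 1 when the embryo, larva or adult library was left out, which was an alternative added after seeing the data. Leaving out any of these could not remove miR-305 from the count, so nothing is read from it. The embryo and larva intervals lay on the same side of 50%, that of the nymph on the other, and the adult was not resolved. With rows that carry no arm suffix left out, miR-71 was counted as well, making 2 of 22 families.

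The other 22 families were mostly fixed on 1 arm. In 18 of the 23 the minor arm never exceeded 5% of the reads in a library with enough reads, and the median spread of the 5p share between libraries was 0.253 percentage points over the 22. Such a spread stays small where the minor arm is rare, even if the 5p to 3p ratio changes. In the nymph against the embryo that ratio was past 2-fold higher in 10% of 20 families and lower in 15%. The lower ones included miR-124 and miR-184, so a changed arm ratio was not particular to miR-305. The spread for miR-305 was 36.8 points. The next was miR-7, a neuronal and sense organ miRNA in Drosophila, with 5p shares of 69.9%, 88.7%, 91.6% and 89.6% from embryo to adult, a spread of 21.7 points. The Hox-cluster miRNA miR-993 followed with 93.7%, 76.9%, 79.0% and 79.5%. The embryo library thus had the lowest 5p share of the 4 for miR-305 and miR-7 and the highest for miR-993.

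The families miR-9 and miR-71 also had minor arms above 5%, with spreads of 10.2 and 5.07 points. The 5p share of miR-9 was 25.9%, 27.2%, 31.7% and 36.1% from embryo to adult, with the 3p arm ahead in all 4 libraries. The 5p share of miR-71 was 70.9%, 65.8%, 66.6% and 69.6%, with the 5p arm ahead in all 4. Each family is a sum over all its listed names, so paralogs are pooled in these shares.

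The listed length of the 5p arm also differed between stages. The embryo list gave all 64 of its 5p reads to the 23 nt name, and the larva list gave all 139 to the 22 nt name. The nymph list gave 616 of 617 reads to the 21 nt name miR-305c-5p and 1 read to miR-305b-5p, and the adult list gave all 211 to miR-305c-5p. The embryo form and the larva form thus each had a row in 1 library, and a name without a row is not evidence that the form was absent. The 3p arm was listed as the same 22 nt row in all 4 libraries. The lists do not state whether a count includes reads of other lengths. The 5p share and the listed 5p length thus moved together over the stages, and the part of the listing in the arm shares was not tested.

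Listing of several lengths was common elsewhere. Among family arms with at least 30 reads, 18 of 40, 23 of 48, 23 of 55 and 16 of 47 from embryo to adult had in the same library at least 2 rows of different length that start at the same base. The miR-305 5p arm had no such pair in any library. Between stages, 15 of 52 family arms (28.8%) had a leading row, the row with the most reads, that differed in length, and in 13 of 52 (25%) the leading rows differed in bases at the 3′ end alone, miR-305 5p being among both. Of the 37 family arms with at least 30 reads in all 4 libraries, 1 fell in length both in the larva against the embryo and in the nymph against the larva, and this was miR-305 5p. The order counted is the one that miR-305 5p itself shows, so it was bound to be in the count, and nothing is read from it.

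The other arms show how far the whole lists moved. Against the embryo, the larva's leading row was shorter in 3, equal in 30 and longer in 4 of 37 other family arms, and the adult's was shorter in 5, equal in 31 and longer in 1 of 37. The miR-305 5p row was 1 nt shorter in the larva and 2 nt shorter in the adult. Nymph rows were shorter than larva rows in 5, equal in 39 and longer in 2 of 46 others, against 1 nt shorter for miR-305 5p. From embryo to adult the mean length over all listed reads was 21.8, 21.5, 21.4 and 21.3 nt. This mean was thus lower at each later stage. It also depends on which miRNAs have most reads, so it does not show that rows in general became shorter. Its part in the miR-305 lengths was not tested.

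**Figure D2:**
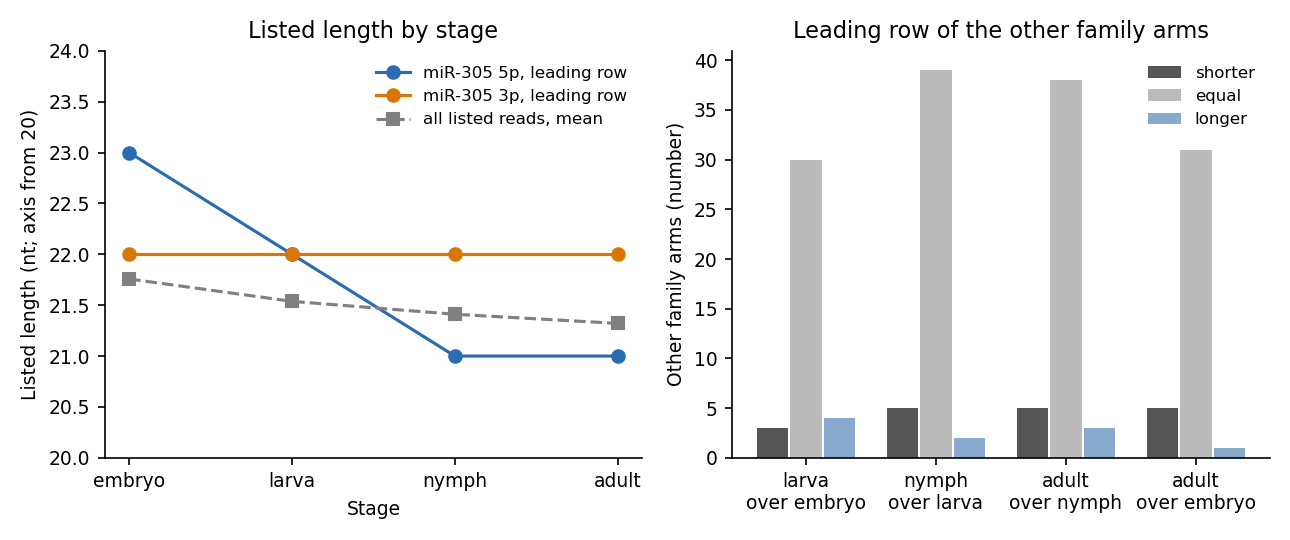
Left, the listed length (nt, axis from 20) of the leading miR-305 5p and 3p rows and the mean over all listed reads, by stage. Right, the number of other family arms whose leading row was shorter, equal or longer in the first stage named of each comparison; most were equal, while the miR-305 5p row has 23, 22, 21 and 21 nt on the left.

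Levels of the arms are given next. From embryo to adult the 5p arm stood at 257.8, 137.3, 490.2 and 481.3 listed RPM. In library RPM the same reads were 10.7, 23.4, 103.8 and 35.7. The nymph was highest in library RPM, and in listed RPM the nymph (452.3 to 530.4) and the adult (418.5 to 550.8) did not differ beyond counting error. The lowest library was the larva in listed RPM and the embryo in library RPM. Their order depends on the scale because the listed reads are a smaller part of the embryo library.

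In the same order the 3p arm stood at 922.4, 173.9, 346.4 and 396.9 listed RPM. In library RPM it was 38.4, 29.6, 73.3 and 29.4. The embryo was highest in listed RPM and the nymph in library RPM. The larva and adult 3p values, 29.6 (25.4 to 34.3) and 29.4 (25.2 to 34.1) library RPM, did not differ beyond counting error, and the nymph and adult values in listed RPM, 346.4 (314.6 to 380.5) and 396.9 (340.1 to 460.4), overlapped as well. From its lowest to its highest library the 3p arm spanned 5.31-fold in listed RPM but 2.49-fold in library RPM, and the 5p arm spanned 3.57-fold and 9.66-fold.

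Both arms together made miR-305 a family of moderate rank. It took 0.118%, 0.0311%, 0.0837% and 0.0878% of the listed reads from embryo to adult. It ranked 17 of 140 families in the embryo, 28 of 145 in the larva, 26 of 165 in the nymph and 25 of 138 in the adult. In listed RPM the sum was 1180.2, 311.2, 836.6 and 878.2 from embryo to adult, highest in the embryo. In library RPM it was 49.2, 53.02, 177.1 and 65.1, highest in the nymph, so the highest stage depends on the scale.

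**Figure D3:**
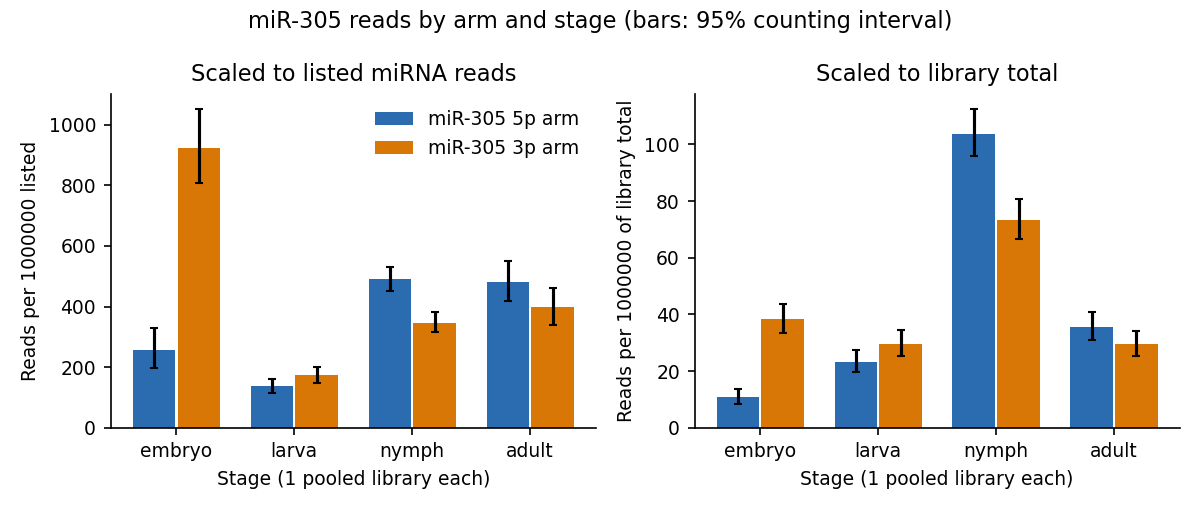
Reads of the miR-305 5p and 3p arms by stage, per 1000000 listed miRNA reads (left) and per 1000000 reads of the library total (right), with 95% Poisson intervals as bars. In the embryo 5p is the shorter bar, with 257.8 against 922.4 for 3p on the left, and in the nymph it is the taller, with 103.8 against 73.3 for 3p on the right.

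Stage ratios were counted as past 2-fold where the exact conditional interval lay wholly beyond it, for family arms with at least 30 reads over both libraries. In the larva against the embryo the 3p arm was 5.31-fold lower in listed RPM (4.34 to 6.49), and 39.7% of 68 family arms were counted lower and 20.6% higher. The 5p arm was 1.88-fold lower (1.37 to 2.54) and was not counted. Its ratio sets the 22 nt row of the larva against the 23 nt row of the embryo. With the library totals the 3p ratio was 0.771 (0.630 to 0.942) and the 5p ratio 2.18 (1.61 to 2.98), neither past 2-fold. The split of all family arms then moved to 31 higher and 2 lower, against 14 and 27 in listed RPM, and median-of-ratios scaling gave 28 and 2, and totals without miR-1 gave 21 and 9. Against listed RPM the library totals multiply every larva over embryo ratio by 4.09, the median-of-ratios scaling by 2.87 and the totals without miR-1 by 1.61.

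In the nymph against the larva the 5p arm was 3.57-fold higher in listed RPM (2.97 to 4.32) and 3.16 to 4.44-fold higher with the other 3 scalings, past 2-fold in each. Of 74 family arms, 10.8% were counted higher and 1.35% lower. This ratio sets the 21 nt rows of the nymph against the 22 nt row of the larva. The 3p arm, the same sequence in both libraries, was 1.99-fold higher (1.67 to 2.39), and past 2-fold with the library totals alone at 2.48 (2.07 to 2.97). The split of all family arms was 8 higher and 1 lower in listed RPM and 14 and 0 with the library totals.

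In the adult against the nymph neither arm was counted in listed RPM, with ratios of 0.982 for 5p (0.836 to 1.15) and 1.15 for 3p (0.956 to 1.37). The shares counted were 12% of 75 family arms higher and 9.33% lower. With the library totals both arms were past 2-fold lower, at 0.344 for 5p (0.292 to 0.402) and 0.401 for 3p (0.334 to 0.479). The split of all family arms was 9 higher and 7 lower in listed RPM. Median-of-ratios scaling gave 1 and 17, and the library totals, which multiply these ratios by 0.350, gave 0 and 33.

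In the adult against the embryo the arms stood on opposite sides of equality under all 4 scalings. The 5p arm was 1.87-fold higher in listed RPM (1.41 to 2.51) and 2.76 to 3.32-fold higher with the other 3, past 2-fold in those. The 3p arm was 2.32-fold lower in listed RPM (1.90 to 2.85), and its ratio was 0.637 to 0.765 with the others. The 5p ratios set the 21 nt row of the adult against the 23 nt row of the embryo. The gap between the arms is the contrast in 5p share again, and the family was picked on its arm balance. In listed RPM 29.2% of 65 family arms were counted higher and 9.23% lower, and neither miR-305 arm was among them. The split was 19 higher and 6 lower in listed RPM and 20 and 3 both with the library totals and without miR-1. All these comparisons share libraries with each other.

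**Figure D4:**
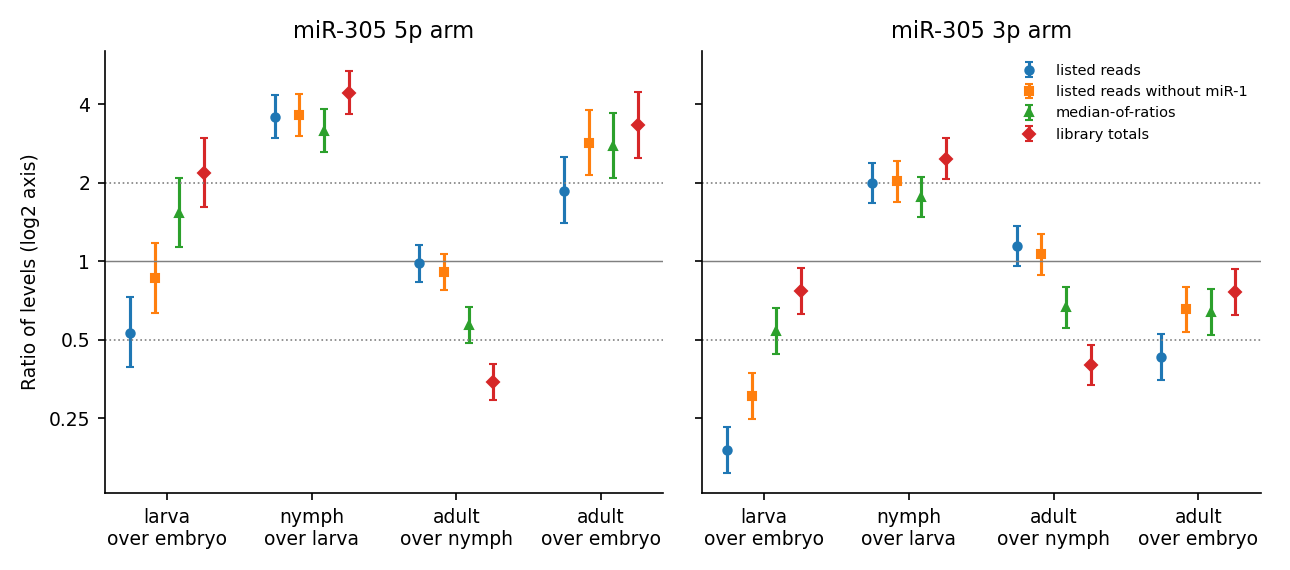
Ratio of the miR-305 5p (left) and 3p (right) levels in each stage comparison (x axis) on a log2 axis, under 4 scalings, with exact conditional 95% intervals; dotted lines mark 2-fold either way. For 5p the nymph over larva ratios lie between 3.16 and 4.44 under every scaling, whereas the larva over embryo ratios of 5p lie on both sides of 1.

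Profiles over the 4 libraries were compared with those of 50 other family arms of at least 100 reads, by the root mean square difference of centred log2 listed RPM, with 4 points per profile and no test. Nearest to the 5p arm was miR-12 5p, at 0.32, with 49, 185, 781 and 250 reads from embryo to adult and 197.4, 182.8, 620.5 and 570.2 listed RPM. Its leading row was 22 nt in the embryo and larva and 21 nt in the nymph and adult. Next came miR-124 3p, from a neuronal miRNA, at 0.63, and miR-5735 5p at 0.64. The other arm of miR-305 was farther from the 5p profile than 17 of them, at 0.91, and stood at rank 18.

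The 3p arm lay nearest to another set. The nearest was miR-2284 5p at 0.21, with 40, 27, 51 and 26 reads. Next were let-7 5p, a sum over the let-7 names, at 0.29, with 371.1, 346.4, 539.3 and 364.1 library RPM, and miR-26 5p at 0.30, with 10.6, 9.59, 18.3 and 12.7 library RPM. In library RPM the 3p arm had 38.4, 29.6, 73.3 and 29.4, so that these arms, like it, were highest in the nymph. The arms nearest to the 5p profile were highest in the nymph on that scale too, so this peak was not particular to the 3p set. In listed RPM the 3p arm and its nearest arms were highest in the embryo. The names miR-2284 and miR-26 are known from vertebrates. Whether these rows, or any other rows of the lists, are mite miRNAs was not tested. The counts over families and family arms take the names as listed. The 5p profile stood at rank 22 for the 3p arm.

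**Figure D5:**
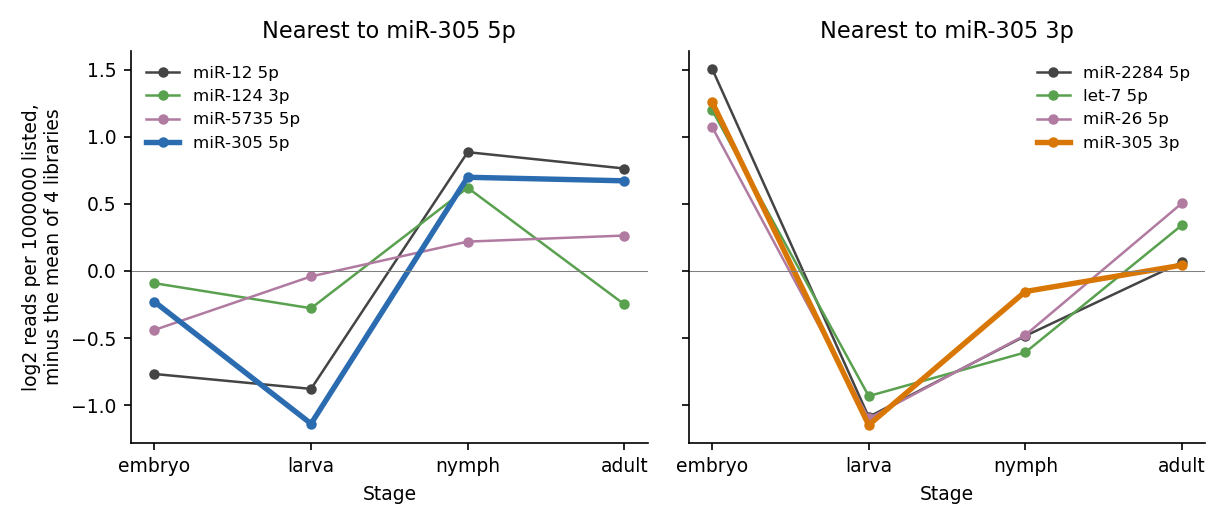
Centred log2 reads per 1000000 listed (y axis, each profile minus its mean over the 4 libraries) by stage for miR-305 5p with its 3 nearest family arms (left) and miR-305 3p with its 3 nearest (right). The 5p profile dips in the larva and is high in the nymph and adult with miR-12 5p, and the 3p profile is highest in the embryo with miR-2284 5p, let-7 5p and miR-26 5p.

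The gene neighbour of miR-305 in Drosophila, miR-275, was sparse in these lists. It had 1, 6, 8 and 3 reads from embryo to adult, all from the 3p arm, under 30 reads in every comparison. Its rows are shown since they too are nested forms of different length at different stages, 23 nt for miR-275-3p and 21 nt for miR-275a-3p.
miR-275-3p: tCAGGTACctgaagtagcgcgcg
miR-275a-3p: tCAGGTACctgaagtagcgcg
The single embryo read and the 3 adult reads were of the 23 nt form and the 6 larva reads of the 21 nt form, while the nymph list had 7 and 1. In listed RPM miR-275 stood at 4.03, 5.93, 6.36 and 6.84 from embryo to adult, and the embryo and adult values are at or below the floor of 3 reads.

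A list of 9 families linked to growth, insulin signalling or the gut in insects was set beside miR-305, with all rows of a family summed. Of these, miR-14 and miR-277 had no row and miR-275 too few reads, which left 6. In the larva against the embryo 3 of 6 were counted higher and 0 lower in listed RPM, where 20.6% of the 68 family arms were higher and 39.7% lower. They were miR-34 (11.4-fold), miR-276 (6.72-fold) and bantam, a growth promoter in Drosophila (2.54-fold). With each of the other 3 scalings all 6 were past 2-fold higher. The median log2 ratio of the 6 in listed RPM was 1.22, against -0.74 over the 68 family arms. The sum of both miR-305 arms was 3.79-fold lower in listed RPM (3.22 to 4.46), with a ratio of 1.08 with the library totals (0.917 to 1.27).

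In the nymph against the larva 0 of the 6 families were past 2-fold in either direction in listed RPM, where 10.8% of 74 family arms were higher and 1.35% lower. With the library totals 1 of 6 was past 2-fold higher, bantam at 2.27. The median log2 ratio of the 6 was 0.62, against 0.32 over the 74 family arms, both in listed RPM. The sum of both miR-305 arms was 2.69-fold higher (2.37 to 3.06).

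In the adult against the nymph 2 of the 6 were higher and 2 lower in listed RPM, where 12% of 75 family arms were higher and 9.33% lower. Higher were miR-8, a regulator of insulin signalling in Drosophila (5.81-fold), and miR-34 (3.17-fold). Lower were miR-278, which acts in energy balance in Drosophila, with a ratio of 0.237, and miR-276, with 0.437. The median log2 ratio of the 6 was -0.02, against 0.51 over the 74 family arms with reads in both libraries. With the library totals 0 were past 2-fold higher and 4 lower, the added ones being bantam at 0.371 and miR-7 at 0.320, while miR-8 and miR-34 stood at 2.03 and 1.11. The sum of the miR-305 arms had a ratio of 1.05 in listed RPM (0.932 to 1.18), which turned to 0.367 with the library totals.

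In the adult against the embryo 5 of 6 were higher and 0 lower under all 4 scalings, miR-278 being the exception with a ratio of 0.728 in listed RPM. Among all 65 family arms 29.2% were higher and 9.23% lower in listed RPM. The median log2 ratio of the 6 was 2.26, against -0.57 over the 65 family arms. The miR-305 sum stood at 0.744 in listed RPM (0.638 to 0.869). With the library totals the ratio of miR-278 turned to 1.29 and that of the miR-305 sum to 1.32.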

How the data were processed

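Small RNA libraries of 4 stages were read from the authors' lists of known miRNAs, 1 list per library, with stages taken from the labels. The authors deposited a raw read count and a scaled value for each name. The scaled values are RPM computed by the authors, since count over value gave 1 library total per list. The aligner, build and miRNA reference, and what these totals include, were not given in the sources used here.

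Names were grouped by family number and arm. A row without an arm suffix was placed on the arm whose suffixed row it overlapped without mismatch over at least 17 bases. Counts were scaled to reads per 1000000 listed. Arm shares have Clopper-Pearson intervals, stage ratios and changes of the 5p to 3p ratio have exact conditional intervals, all at 95%, and levels have Poisson intervals (SciPy 1.17.1, Python 3.11.15). A ratio was counted with at least 30 reads over both libraries and its interval beyond 2-fold, and 3 reads served as floor. Duplexes were predicted with RNAduplex (ViennaRNA 2.7.2). The interval calls were tested on simulated data with counting error alone. Such data hold no replicate or PCR spread, so they cannot show how the calls stand up to it. No model of replicates could be fitted with 1 library per stage.

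The named families follow a rule: all miR-305 rows, families whose dominant arm differed, the 3 nearest profiles per arm, a list of 9 families, and names sharing a miR-305 seed. The families miR-7, miR-993, miR-9, miR-71 and miR-184, and miR-124 for its arm ratio, were named after their values were seen. The members and lists were chosen with earlier results of these data known. Alternatives were library totals, median-of-ratios scaling, totals without miR-1, other read minimums and other ways to place rows. The scalings of the list counts and the left-out libraries were added after seeing the data.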

Additional observations from a re-analysis of the deposited data

How the results depend on the processing

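The miR-305 5p shares kept their values within the counting interval when suffixed rows alone, sequence overlap or the leading row of each arm was used. These alternatives could hardly move them, and nothing is read from this. Every miR-305 name carries an arm suffix, and the embryo, larva and adult lists hold a single row per arm. The number of families with a differing dominant arm, 1, became 2 with rows lacking a suffix left out. It was 0 without the nymph library and 1 without the embryo, larva or adult library. Leaving out the embryo, larva or adult could not remove miR-305, so nothing is read from that. Other read minimums left the number of families at 1. The length count went from 15 to 19 with at least 10 reads and 11 with at least 100. Ratios changed with scaling, since listed reads are a different part of each library. With the library totals the 5p ratio was 2.18 for larva over embryo, 0.344 for adult over nymph and 3.32 for adult over embryo, the 3p ratio 0.771 for larva over embryo, 2.48 for nymph over larva and 0.401 for adult over nymph, and the ratio of both arms 1.08, 0.367 and 1.32 for larva over embryo, adult over nymph and adult over embryo. With median-of-ratios scaling the 5p ratio was 1.53 for larva over embryo and 2.76 for adult over embryo, the 3p ratio 0.542 for larva over embryo and 0.667 for adult over nymph, and that of both arms 0.758, 0.611 and 1.10 for larva over embryo, adult over nymph and adult over embryo. Without miR-1 in the totals the 5p ratio for adult over embryo was 2.83 and that of both arms 0.974 for adult over nymph and 1.13 for adult over embryo. The library totals moved the family arms past 2-fold to 14 for nymph over larva, against 9 in listed RPM, and to 33 for adult over nymph, against 16. Single rows gave a ratio for the 3p arm in every comparison and for the 5p arm in adult over nymph alone, because no other 5p row was in both libraries. No replicate could be left out. No paired analysis was possible because each stage has 1 library. Counts from 64 to 617 reads per arm limit the shares.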
